A study of Mus musculus with 28 samples.

Results

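Among 28 mouse striatal RNA-seq libraries, the 8 with the highest and the 8 with the lowest level of a cortical transcript relative to a striatal one were compared. The libraries were chosen by log2((Slc17a7 + 0.5)/(Ppp1r1b + 0.5)) of the deposited FPKM (fragments per kilobase of transcript, scaled to the fragments mapped). Slc17a7 encodes the vesicular glutamate transporter of cortical pyramidal neurons, and Ppp1r1b encodes DARPP-32, a protein phosphatase inhibitor of striatal spiny projection neurons. The 16 libraries are called high-ratio and low-ratio here, and the other 12 are called middle libraries. Both genes chose the groups, so they are left out of every test.

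Each library came from the striatum of 1 C57BL/6J mouse, bred in one university colony, that had received either haloperidol or placebo. Haloperidol is an antipsychotic drug that blocks dopamine D2 receptors, and the series calls the treatment chronic; the sources used here do not give dose, duration, age or sex. The series held 16 haloperidol and 12 placebo libraries in 2 labelled batches. The high-ratio libraries were 3 haloperidol and 5 placebo, 4 from batch 1 and 4 from batch 2. The low-ratio libraries were 5 haloperidol and 3 placebo, 7 from batch 1 and 1 from batch 2. Libraries are named by treatment and the mouse number in the labels as a replicate number.

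The striatum is the input nucleus of the basal ganglia and lies directly beneath the cortex and the corpus callosum. Nearly all of its neurons are GABA-releasing spiny projection neurons. Direct-pathway cells carry dopamine D1 receptors and substance P, and indirect-pathway cells carry D2 and adenosine 2A receptors and enkephalin. Cortical pyramidal neurons release glutamate and depend on transcription factors such as Tbr1 and Neurod6, so a dissection that includes cortex carries their transcripts. In such bulk RNA, fewer cells of a type and less RNA per cell cannot be told apart.

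The rule genes ranged widely, which is a description of the choice and no finding. Deposited Slc17a7 was 242, 265 and 378 FPKM (lowest, median, highest) in the high-ratio libraries and 126, 161 and 233 FPKM in the low-ratio libraries. Deposited Ppp1r1b was 665, 726 and 844 FPKM in the high-ratio libraries and 982, 1254 and 1414 FPKM in the low-ratio libraries. The log2 ratio ran from -0.90 in haloperidol replicate 5 to -3.45 in placebo replicate 12. Just inside the upper limit was placebo replicate 6 at -1.63, and just outside it placebo replicate 22 at -1.64. Just inside the lower limit was haloperidol replicate 35 at -2.32, and just outside it placebo replicate 10 at -2.21. The upper limit therefore fell where the libraries lay close together, and the lower group was spread more widely.

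**Figure D1:**
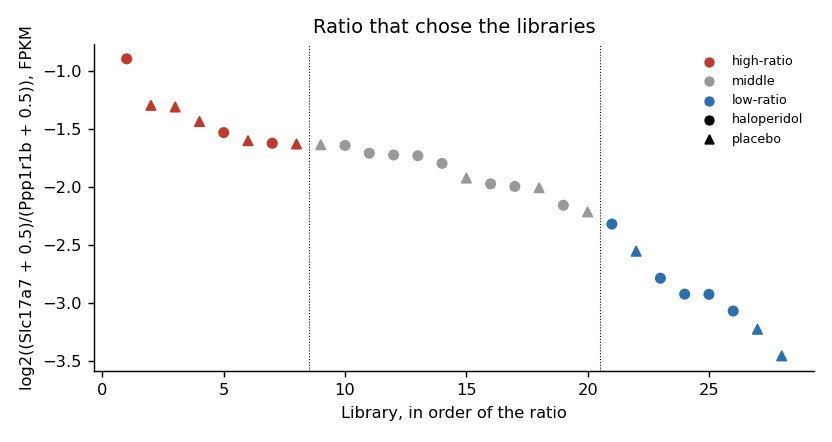
The log2 ratio of Slc17a7 to Ppp1r1b (y axis, deposited FPKM) of each of the 28 libraries in order of the ratio (x axis); circles are haloperidol and triangles placebo, and dotted lines mark the group limits. The high-ratio libraries run from -0.90 to -1.63 and the low-ratio libraries from -2.32 to -3.45.

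Cortical markers were present in every low-ratio library, so the working name of striatum-pure tissue did not hold for them. Scaled Neurod6 there was 6.07 to 16.0 FPKM and scaled Tbr1 was 6.99 to 16.0 FPKM, where scaled means normalised across libraries by the median of ratios. Ppp1r1b exceeded Slc17a7 in every high-ratio library too.

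Library measures that the rule did not use overlapped between the groups. The RNA integrity number was 8.05 ± 0.671 (SD, n = 8) in high-ratio and 7.87 ± 0.398 (SD, n = 8) in low-ratio libraries (exact permutation p = 0.511, Benjamini-Hochberg adjusted p = 0.619 over 5 measures, 2-sided). Depth relative to the other libraries was 1.24 ± 0.294 and 0.944 ± 0.356 (SD, n = 8 each, with exact permutation p = 0.0889 on log2 values, adjusted p = 0.282). The FPKM sum was 434800 ± 63750 and 482200 ± 54290 (SD, n = 8 each, with exact permutation p = 0.113 on log2 values, adjusted p = 0.282). The split of treatment (Fisher's exact p = 0.619, adjusted p = 0.619) and that of batch (Fisher's exact p = 0.282, adjusted p = 0.470) did not pass either. Within the high-ratio group the measures were uneven. Haloperidol replicate 5 and placebo replicate 4, which had the highest ratios, had its lowest RNA integrity numbers (7.44 and 7.08). They also had its highest FPKM sums (516527 and 548626).

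Of 12758 genes tested, 24 rose with the ratio (0.188% of the genes tested) and 27 fell (0.212%) in the high-ratio against the low-ratio libraries. The genes that rose were led by Neurod6, C1ql3, Fezf2 and Cbln2, which cortical pyramidal neurons express. Those that fell were led by the kinase gene Stk32a, Cd4, the adenosine 2A receptor gene Adora2a, Ido1 and the D2 receptor gene Drd2. The median log2 difference was 0.65 over the genes that rose and -0.62 over those that fell, against 0.00032 over all genes tested. Together they were 51 genes (0.4%), and 1072 (8.4%) had an unadjusted p under 0.05. The test was limma with treatment and batch in the model and a Benjamini-Hochberg adjusted p under 0.05. Because measured RNA chose the groups, these p-values describe separation along the ratio.

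In 18 of the 24 genes that rose, every high-ratio library lay above every low-ratio one, as in 60 of all genes tested (0.47%). In 19 of the 27 that fell, every high-ratio library lay below every low-ratio one, as in 44 of all genes tested (0.345%). Over all 28 libraries, with the ratio as a continuous term, limma called 281 genes with a positive slope (2.2%) and 148 with a negative one (1.16%), and all 51 were among them. The 16 libraries that gave the calls entered these counts too, so neither the separation nor the continuous fit is separate support for the 51 genes. Within batch 1, with 4 high-ratio and 7 low-ratio libraries, all 51 genes kept their direction, as did 91.7% of all genes tested in fits that share these libraries, and 0 passed the adjusted threshold in limma, while 789 genes (6.18%) had an unadjusted p under 0.05. Batch 2 held a single low-ratio library, so no within-batch value was computed there.

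The counts depended on single libraries. Without haloperidol replicate 5, the library with the highest ratio, 0 genes rose and 3 fell, and without placebo replicate 12, the one with the lowest ratio, 0 rose and 9 fell. The genes that rose numbered 1 without placebo replicate 2, 1 without placebo replicate 4, 6 without placebo replicate 6 and 7 without placebo replicate 8. They numbered 11 without haloperidol replicate 7, 12 without placebo replicate 26, 14 without placebo replicate 32, 15 without haloperidol replicate 9 or 21, and 52 without placebo replicate 20. The genes that fell numbered 14 without placebo replicate 4, 17 without haloperidol replicate 7, 21 or 35, and 46 without haloperidol replicate 13. Stk32a, Adora2a and Rasgrp2 passed in all 16 omissions, and the other 48 genes lost the call in at least 1, all of them without haloperidol replicate 5. With log2 of the summed choroid plexus markers added to the model, an alternative chosen after seeing the data, 0 genes rose and the same 3 fell. Of the 51 genes, 1 was still called after rescaling to a common FPKM sum, 1 for 6 against 6 libraries, 7 with grouping by Slc17a7 alone and 27 with grouping by Ppp1r1b alone. No gene among the 51 changed direction under any alternative run.

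The promoters of a gene that rose and of one that fell are shown because Neurod6 led the cortical side and Drd2 is the receptor that haloperidol blocks. Each is 300 bases, from 250 before to 50 after the RefSeq start, on the GRCm38.p6 build and 5′ to 3′ on the gene's strand. Capitals mark CANNTG, the E-box pattern bound by transcription factors of the Neurod6 type, which reads the same on both strands.
Neurod6: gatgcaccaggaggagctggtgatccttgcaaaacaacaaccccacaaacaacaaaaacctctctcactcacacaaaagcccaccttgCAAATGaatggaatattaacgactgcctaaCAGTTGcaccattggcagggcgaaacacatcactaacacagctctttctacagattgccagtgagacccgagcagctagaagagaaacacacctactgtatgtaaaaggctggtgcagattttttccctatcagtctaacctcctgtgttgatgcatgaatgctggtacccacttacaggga
Drd2: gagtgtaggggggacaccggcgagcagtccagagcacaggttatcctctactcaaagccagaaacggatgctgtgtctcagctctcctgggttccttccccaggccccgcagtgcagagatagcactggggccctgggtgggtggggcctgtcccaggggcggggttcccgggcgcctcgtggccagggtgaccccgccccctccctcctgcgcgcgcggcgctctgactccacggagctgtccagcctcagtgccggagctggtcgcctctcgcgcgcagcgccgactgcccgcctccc
The Neurod6 window lies at chr6:55681214-55681513 on the minus strand, with 46.3% GC, 3 CpG and 2 E-box matches. The Drd2 window lies at chr9:49340153-49340452 on the plus strand, with 70.3% GC, 23 CpG and 0 matches. The pattern occurred in 72.3% of the 32851 promoters of this length in the RefSeq table, and in at least 1 promoter of 75% of its 27025 gene symbols. Counted per gene symbol, it occurred for 12 of the 15 genes that rose and 11 of the 16 genes that fell with a promoter in the table.

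Neurod6 (chr6:55627813-55631257 in mm9, minus strand, 2 exons) encodes a transcription factor of pyramidal neurons. Its scaled level was 20.9, 24.0 and 27.6 FPKM (lowest, median, highest) in the high-ratio libraries and 6.07, 11.4 and 16.0 FPKM in the low-ratio libraries. The groups did not overlap, with low-ratio haloperidol replicate 19 at the bottom and high-ratio placebo replicate 32 at the top. The log2 difference was 1.07 (SE 0.196; limma adjusted p = 0.0302), the largest among the genes that rose. The call was lost in 7 of the 16 omissions, with an adjusted p of 0.186 without haloperidol replicate 5, 0.102 without placebo replicate 12, and 0.0526 to 0.0759 without placebo replicates 2, 4, 6 and 8 or haloperidol replicate 21. Placebo replicate 22, just outside the upper limit, held the highest level of all 28 libraries at 33.6 FPKM.

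Fezf2 (chr14:13174406-13178379 in mm9) encodes a transcription factor of deep-layer neurons that project out of the cortex. Scaled Fezf2 was 6.21, 7.91 and 13.2 FPKM in the high-ratio libraries and 3.403, 4.47 and 5.64 FPKM in the low-ratio libraries. Placebo replicate 4 and haloperidol replicate 5 stood highest and the groups did not overlap. The log2 difference was 0.97 (SE 0.161; limma adjusted p = 0.0225). The call was lost without haloperidol replicate 5 (adjusted p = 0.155), placebo replicate 12 (0.0660) and placebo replicate 2 (0.0523).

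Tbr1 (chr2:61642510-61652170 in mm9), a marker given with the groups, encodes a transcription factor of early-born pyramidal neurons. Its scaled level was 17.1, 20.3 and 30.9 FPKM in the high-ratio and 6.99, 11.5 and 16.0 FPKM in the low-ratio libraries, without overlap. Its log2 difference of 0.77 (SE 0.182) did not pass in limma (adjusted p = 0.0806).

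Of 17 cortical excitatory neuron genes without Slc17a7, 3 rose, 0 fell and 14 did not pass, with a median log2 difference of 0.67. The share called over all genes tested was 0.4%. Beside Neurod6, the genes that rose were Nptx1 and Nrn1. Nptx1, a pentraxin that gathers AMPA receptors at synapses, was 38.7, 44.2 and 52.2 FPKM against 16.4, 28.0 and 32.5 FPKM, with a log2 difference of 0.86 (SE 0.173; limma adjusted p = 0.0456). Nrn1, the membrane-anchored growth factor neuritin, was 81.0, 93.2 and 108 FPKM against 41.6, 51.7 and 80.5 FPKM, with a log2 difference of 0.73 (SE 0.140; limma adjusted p = 0.0390). Neither overlapped between the groups, though the highest low-ratio level of Nrn1 lay just below its lowest high-ratio level. Nptx1 was called in 4 and Nrn1 in 3 of the 16 omissions. In all, 16 of the 17 lay above 0. Among those that did not pass were Slc30a3, the synaptic zinc transporter (0.83; adjusted p = 0.0649), Neurod2 (0.81; adjusted p = 0.0933) and Sv2b, a synaptic vesicle protein (0.63; adjusted p = 0.0806).

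The layer lists gave fewer calls. Among all genes tested, 0.4% were called and 8.4% had an unadjusted p under 0.05. None of 10 upper-layer genes passed in limma (3 had an unadjusted p under 0.05), with a median log2 difference of 0.28; Rasgrf2 had 0.46 (adjusted p = 0.272) and Lhx2, a transcription factor of upper layers, 0.36 (adjusted p = 0.159). Of 14 deep-layer genes tested, Fezf2 alone rose, 11 lay above 0 and 3 below, and the median was 0.27. At an unadjusted limma p under 0.05, 3 were higher and 1 was lower, Syt6 (-0.36). Tshz2 (0.56; adjusted p = 0.301) and Rprm (0.47; adjusted p = 0.220) did not pass. Whether the layers differed was not tested.

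The remaining genes that rose came from several families. C1ql3, a secreted C1q-like synaptic protein, was 16.2, 21.6 and 24.7 FPKM against 7.04, 10.8 and 15.1 FPKM, with a log2 difference of 0.98 (SE 0.173; limma adjusted p = 0.0225). The groups did not overlap. The exons of C1ql3 share 1567 bases with an opposite-strand gene, and the sources used here do not give whether the quantification used strand. Cbln2, a cerebellin that joins presynaptic and postsynaptic membranes, was 10.5, 14.6 and 16.9 FPKM against 5.43, 7.19 and 9.52 FPKM, with a log2 difference of 0.91 (limma adjusted p = 0.0225) and no overlap.

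Receptor genes also rose. Gfra2, the neurturin receptor, had a log2 difference of 0.78, the alpha-1B adrenergic receptor gene Adra1b 0.70 and the cholecystokinin B receptor gene Cckbr 0.58. Gfra2 and Adra1b overlapped between the groups and Cckbr did not, at 13.2 to 20.6 FPKM against 8.76 to 12.0 FPKM. The neuronal calcium sensor genes Ncald (0.70) and Vsnl1 (0.61) rose as well. Vsnl1 was the most abundant of the genes that rose that are named here, at 245, 296 and 323 FPKM against 139, 196 and 244 FPKM. Other genes that rose were Fam19a1 (0.81), a secreted chemokine-like protein, Dkk3 (0.68), Islr2 (0.62) and Dlgap1 (0.53), a scaffold of the postsynaptic density. The smallest difference among the 24 was 0.35 for Ccnd1, cyclin D1.

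**Figure D2:**
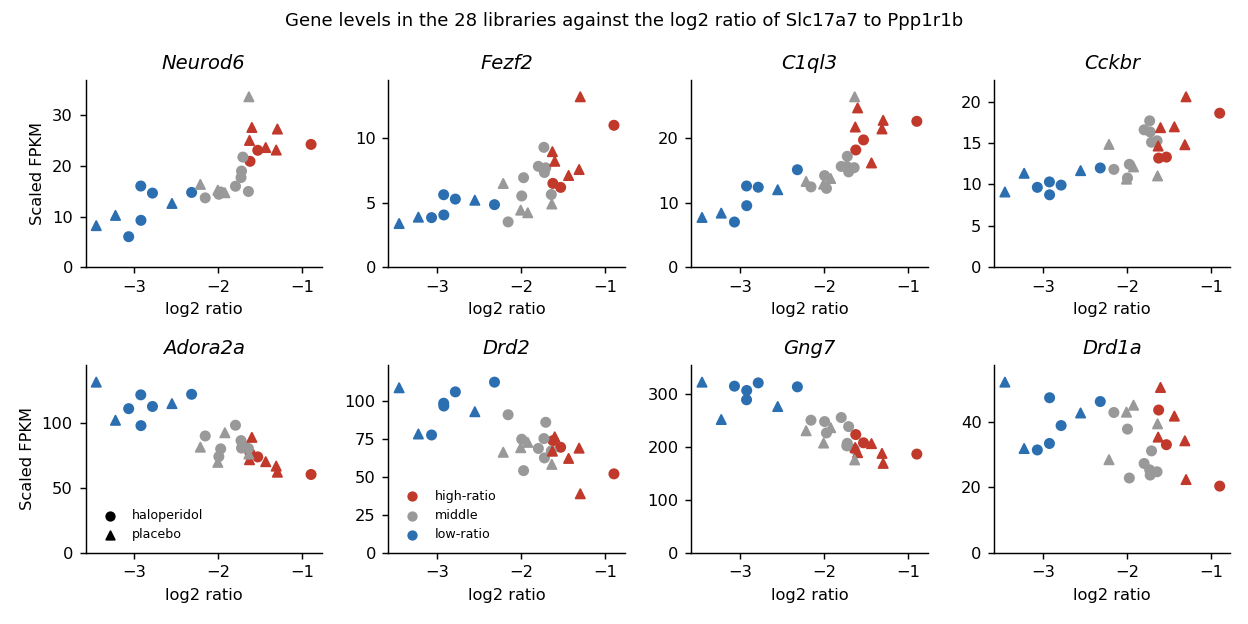
Scaled FPKM (y axis, from 0) of 8 genes in each of the 28 libraries against the log2 ratio of Slc17a7 to Ppp1r1b (x axis); red marks high-ratio, grey middle and blue low-ratio libraries, circles are haloperidol and triangles placebo. Neurod6, Fezf2, C1ql3 and Cckbr lie higher at high ratios, Adora2a, Drd2 and Gng7 lie lower there, and Drd1a overlaps between the groups.

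Genes of indirect-pathway neurons were among those that fell. Of 8 such genes, Adora2a, Drd2 and Penk fell, 0 rose and 5 did not pass, with a median log2 difference of -0.52. Of all genes tested, 0.4% were called. In all, 6 of the 8 lay below 0 and 2 above it, Grik3 (0.30) and Gpr52 (0.07). Adora2a (chr10:74779688-74797533 in mm9, plus strand, 3 exons) encodes the adenosine 2A receptor, which opposes D2 signalling. Its scaled level was 60.5, 71.2 and 89.2 FPKM in the high-ratio libraries and 98.3, 114 and 132 FPKM in the low-ratio libraries. The groups did not overlap, and haloperidol replicate 5 was lowest and placebo replicate 12 highest of all 28. The log2 difference was -0.79 (SE 0.0852; limma adjusted p = 0.000929). It was -0.75 to -0.83 when each library was left out, and called each time. The call was lost with libraries grouped by Slc17a7 alone (-0.56; adjusted p = 0.268), in batch 1 alone (-0.82; 0.0695), after rescaling to a common FPKM sum (-0.74; 0.0567) and for 6 against 6 libraries (-0.86; 0.0512).

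Drd2 (chr9:49148767-49215319 in mm9, plus strand, 8 exons) was 38.8, 67.7 and 76.2 FPKM in the high-ratio and 77.4, 97.3 and 112 FPKM in the low-ratio libraries. The groups were separate by a narrow margin, and placebo replicate 4 stood lowest. The log2 difference was -0.73 (SE 0.136; limma adjusted p = 0.0325). The call was lost without haloperidol replicate 5 (adjusted p = 0.197), placebo replicate 12 (0.108), haloperidol replicates 35 (0.0659), 7 (0.0600), 21 (0.0567) and 9 (0.0529), and placebo replicate 4 (0.0544).

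Penk (chr4:4060683-4065592 in mm9, minus strand, 2 exons) encodes the enkephalin precursor of indirect-pathway neurons. It was 539, 646 and 966 FPKM in the high-ratio and 908, 1267 and 1371 FPKM in the low-ratio libraries, and the groups overlapped. The log2 difference was -0.68 (SE 0.120; limma adjusted p = 0.0225) with treatment in the model. The call was lost without haloperidol replicate 5 (adjusted p = 0.134), placebo replicate 12 (0.0718), placebo replicate 4 (0.0618), placebo replicate 6 (0.0529) and placebo replicate 8 (0.0527). Gpr6, an orphan receptor of indirect-pathway cells, had a log2 difference of -0.74 that did not pass (adjusted p = 0.303).

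None of 8 direct-pathway genes passed in limma, although all 8 lay below 0 and 5 had an unadjusted p under 0.05. Of all genes tested, 0.4% were called and 8.4% had an unadjusted p under 0.05, so 8 genes would seldom hold a call. The median log2 difference of the 8 was -0.41. Drd1a, the D1 receptor gene, was 20.4, 34.8 and 50.6 FPKM in the high-ratio and 31.4, 40.8 and 52.2 FPKM in the low-ratio libraries, so the groups overlapped over most of their range. Its log2 difference was -0.52 (SE 0.156; adjusted p = 0.180). Tac1, the substance P precursor, was 90.0, 108 and 134 FPKM against 125, 141 and 240 FPKM (-0.55; adjusted p = 0.0537, and 0.0442 without placebo replicate 20). Pdyn, the dynorphin precursor, had a log2 difference of -0.35 (SE 0.443; adjusted p = 0.957), and the muscarinic M4 receptor gene Chrm4 had -0.39 (adjusted p = 0.0839). Whether direct- and indirect-pathway genes differed in their response was not tested.

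Of 24 general spiny projection neuron genes tested without Ppp1r1b, 6 fell, 0 rose and 18 did not pass. All 24 lay below 0, with a median log2 difference of -0.51, and 16 had an unadjusted p under 0.05. The shares over all genes tested were 0.4% called and 8.4% at an unadjusted p under 0.05. Gng7 (chr10:80411369-80477670 in mm9), the G-protein gamma subunit that couples D1 and adenosine 2A receptors to adenylyl cyclase, was 169, 195 and 224 FPKM in the high-ratio and 252, 311 and 323 FPKM in the low-ratio libraries. The groups did not overlap and the log2 difference was -0.62 (SE 0.0809; limma adjusted p = 0.00357). Its call was lost without haloperidol replicate 5 (adjusted p = 0.0630).

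Syndig1l, a membrane protein enriched in the caudate and putamen, was 61.8, 70.9 and 80.0 FPKM against 93.4, 116 and 125 FPKM, with no overlap and a log2 difference of -0.72 (limma adjusted p = 0.00319). Pde1b, the calmodulin-dependent phosphodiesterase, was 270, 304 and 369 FPKM against 376, 441 and 558 FPKM, with a log2 difference of -0.66 (limma adjusted p = 0.0162). These groups were separate too. Without haloperidol replicate 5 the adjusted p was 0.0537 for Syndig1l and 0.134 for Pde1b.

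The other members that fell were Ido1 (-0.78), an enzyme of tryptophan breakdown, Rasd2 (-0.62), which encodes the striatal GTPase Rhes, and Ptpn5 (-0.50), which encodes the striatum-enriched phosphatase STEP. All of these overlapped between the groups. Several well-known striatal genes did not pass. Rgs9, a brake on D2 signalling, had a log2 difference of -0.74 (SE 0.173; adjusted p = 0.0764) and the adenylyl cyclase gene Adcy5 -0.54 (adjusted p = 0.132). Pde10a, the main phosphodiesterase of spiny neurons, varied from 12.1 to 93.2 FPKM within the high-ratio libraries, and its difference of -0.38 had an SE of 0.432 (adjusted p = 0.957). Its lowest high-ratio values were 12.1 FPKM in placebo replicate 4 and 14.5 FPKM in haloperidol replicate 5, which had the highest ratios. When each library was left out, the Pde10a difference was -0.66 to -0.03. Without covariates the Pde10a difference turned to 0.19.

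Genes outside these lists fell as well. Stk32a, a serine/threonine kinase gene, was 3.66, 5.17 and 6.43 FPKM in the high-ratio and 7.62, 8.22 and 9.35 FPKM in the low-ratio libraries. The groups did not overlap, and its log2 difference of -0.85 (SE 0.0884; limma adjusted p = 0.000929) was the largest among the genes that fell. Rasgrp2, an exchange factor for Rap GTPases, was 45.0, 51.7 and 63.7 FPKM against 68.0, 82.5 and 99.6 FPKM, with a difference of -0.72 (SE 0.0908; limma adjusted p = 0.00319) and no overlap.

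Cd4, known as the co-receptor of helper T cells, was 13.4, 14.7 and 18.4 FPKM against 19.6, 26.02 and 33.5 FPKM, with a difference of -0.80 (SE 0.117; limma adjusted p = 0.0127) and no overlap. Without haloperidol replicate 5 its adjusted p was 0.105. Of 10 microglial genes beside it, 0 passed in limma, against 0.4% of all genes tested, and the median was -0.17. At an unadjusted p under 0.05 there was 1 of the 10, against 8.4% of all genes tested. The summed level of the 10 was 263 to 514 FPKM in the high-ratio and 336 to 601 FPKM in the low-ratio libraries.

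Slc32a1, the vesicular GABA transporter, fell by 0.38 on the log2 scale, from 89.0 to 110 FPKM in the low-ratio to 67.9 to 79.9 FPKM in the high-ratio libraries. The transcription factor genes Six3 (-0.62) and Lmo2 (-0.52), the GTPase gene Rem2 (-0.67) and Lrrc10b (-0.70) fell too. The nuclear envelope gene Sun2 (-0.49) and the lipase gene Lpl (-0.48) also fell, each without overlap.

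Interneuron genes were mixed. Beside their counts stand 0.4% of all genes tested called and 8.4% at an unadjusted p under 0.05. All 7 cholinergic interneuron genes lay below 0, with a median log2 difference of -0.50, but 0 passed in limma and 4 had an unadjusted p under 0.05. Slc18a3, the vesicular acetylcholine transporter, was 1.81, 2.28 and 2.66 FPKM against 3.01, 3.73 and 5.07 FPKM (-0.56; adjusted p = 0.0626). Slc10a4, a vesicular transporter-like protein (-0.59; adjusted p = 0.0609), likewise did not overlap. Chat, which makes acetylcholine, had -0.50 with an SE of 0.389 (adjusted p = 0.915) and overlapped.

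Of 14 GABA interneuron genes tested, 0 passed in limma (4 had an unadjusted p under 0.05), 10 lay above 0 and the median was 0.13. The peptide gene Vip was 8.43, 11.9 and 16.5 FPKM in the high-ratio and 3.61, 6.63 and 11.4 FPKM in the low-ratio libraries (log2 difference 0.97; adjusted p = 0.0730). The cholecystokinin gene Cck had 0.81 (adjusted p = 0.278), with 752 FPKM in its highest library, and the potassium channel gene Kcnc2 had 0.50 (adjusted p = 0.175). Which cells the Cck RNA came from was not tested. Other members lay near or below 0. Pvalb had 0.04 and Npy 0.06, and the 4 members below 0 were Sst (-0.0071), Calb2 (-0.08), Lhx6 (-0.12) and Reln (-0.27).

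Glial and vascular lists gave no calls in limma. Over all genes tested, 0.4% were called and 8.4% had an unadjusted p under 0.05, so short lists would seldom hold a call. Of 14 oligodendrocyte and myelin genes, all lay below 0, 5 had an unadjusted p under 0.05, and the median was -0.23. Mal was 123, 137 and 169 FPKM in the high-ratio and 155, 169 and 218 FPKM in the low-ratio libraries (-0.33; adjusted p = 0.208). The summed oligodendrocyte level was 2426 to 3511 FPKM in the high-ratio and 2917 to 4066 FPKM in the low-ratio libraries. The median was 0.06 for astrocyte genes, with 6 of 11 above 0 and 1 at an unadjusted p under 0.05. It was -0.0025 for endothelial genes, of which 4 of 8 lay above 0 and 0 had an unadjusted p under 0.05.

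Choroid plexus genes lay lower in the high-ratio libraries without passing the test. They belong to the epithelium that secretes cerebrospinal fluid in the ventricles next to the striatum. All 15 tested lay below 0, with a median log2 difference of -0.95, but 0 passed in limma and 6 had an unadjusted p under 0.05. Of all genes tested, 0.4% were called and 8.4% had an unadjusted p under 0.05. Ttr, the thyroxine carrier, was 17.6, 1467 and 3393 FPKM in the high-ratio and 646, 2424 and 9219 FPKM in the low-ratio libraries. The difference of -2.67 had an SE of 1.08 (adjusted p = 0.448), and the lowest of all 28 libraries, placebo replicate 4 and haloperidol replicate 5 at 102 FPKM, were those of the highest ratios. The summed level of the list was 66.9 to 3954 FPKM against 757 to 9626 FPKM, and 0 of its 16 members were listed at 0 in every library. With log2 of that sum in the model the differences were 0.88 for Neurod6 (adjusted p = 0.323), -0.63 for Drd2 (0.323), -0.73 for Penk (0.140), -0.78 for Adora2a (0.0198) and -0.74 for Stk32a (0.0174). The part of choroid plexus RNA in these differences was not tested further.

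**Figure D3:**
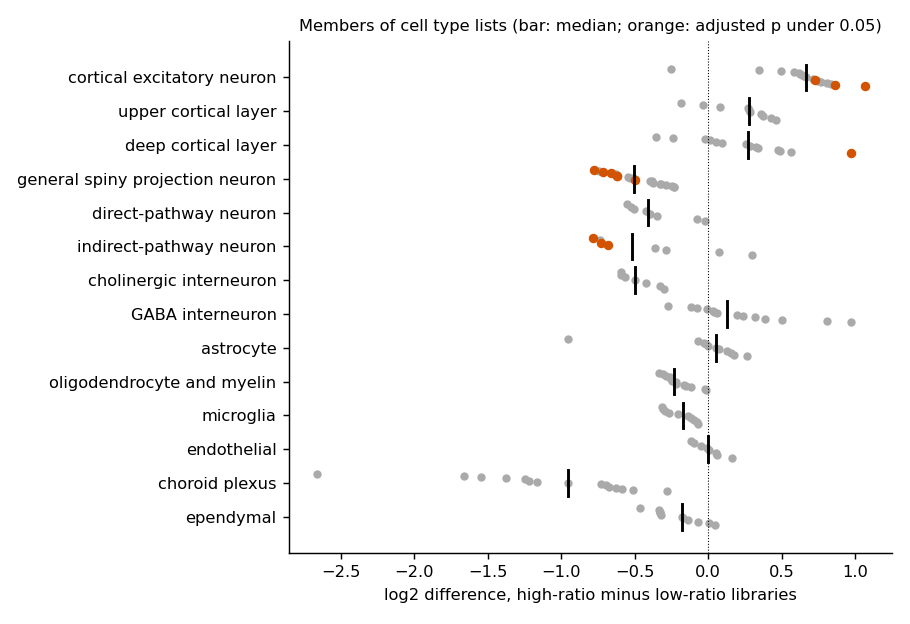
The log2 difference, high-ratio minus low-ratio libraries (x axis), of each tested member of 14 cell type lists (y axis); black bars are list medians and orange points had a limma adjusted p under 0.05. Cortical excitatory genes centre on 0.67, general spiny projection neuron genes on -0.51 and choroid plexus genes on -0.95, the last without an orange point.

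Signalling and channel families were mostly without calls. For these and the receptor and other families that follow, the shares over all genes tested were 0.4% called and 8.4% at an unadjusted p under 0.05. Of 21 dopamine and cAMP genes tested, Drd2, Gng7 and Pde1b fell, 0 rose, and the median was -0.20. Of 15 cyclic nucleotide phosphodiesterase genes, Pde1b alone fell. Its relative Pde1a was 21.5, 26.4 and 37.9 FPKM in the high-ratio and 11.4, 14.8 and 20.7 FPKM in the low-ratio libraries, the opposite direction without overlap (log2 difference 0.66; adjusted p = 0.0543). Of 17 regulators of G protein signalling, 0 passed in limma and 5 had an unadjusted p under 0.05.

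Of 30 voltage-gated sodium and calcium channel genes, Cacna1h alone fell, by 0.34 on the log2 scale (limma adjusted p = 0.0489). It encodes the T-type calcium channel Cav3.2 and was 8.01, 9.22 and 9.68 FPKM against 10.9, 11.7 and 13.7 FPKM. It was called in 3 of the 16 omissions and its exons share 156 bases with an opposite-strand gene. The T-type channel gene Cacna1g had a difference of 0.62 in the other direction (adjusted p = 0.0633), without overlap. Of 64 potassium channel genes, 0 passed in limma and 17 had an unadjusted p under 0.05. Kcnj6, a G-protein-gated channel, had 0.92 (adjusted p = 0.132) and Kcnip2, a channel-interacting protein, had -0.46 (adjusted p = 0.0764).

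Among 24 glutamate receptor genes, 0 passed in limma, 7 had an unadjusted p under 0.05 and the median was 0.13; Grm2 had 0.68 (adjusted p = 0.280) and Grm8 0.43 (adjusted p = 0.209). Among 11 GABA-A receptor subunits, 0 passed in limma, 3 had an unadjusted p under 0.05 and the median was 0.23. Gabra3 had 0.64 (adjusted p = 0.157) and Gabrd, which forms extrasynaptic receptors, -0.43 (adjusted p = 0.502). Among 23 cadherin and protocadherin genes, 20 lay above 0 with a median of 0.23, 0 passed in limma and 2 had an unadjusted p under 0.05. Among 18 immediate early genes, 14 lay above 0 and 0 passed in limma, with 2 at an unadjusted p under 0.05. Bdnf, the neurotrophin that cortical neurons supply to the striatum, was 3.32, 4.41 and 6.73 FPKM against 1.76, 2.41 and 3.16 FPKM, without overlap (0.75; adjusted p = 0.0557).

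Housekeeping lists lay slightly below 0. Of 81 ribosomal protein genes, 77 lay below 0, with a median of -0.17, and 0 passed in limma or had an unadjusted p under 0.05. Of 77 oxidative phosphorylation genes, 74 lay below 0, with a median of -0.11, and 0 passed in limma while 3 had an unadjusted p under 0.05.

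The 12 middle libraries did not enter the fit that compared the groups. They were ranked with the others when the groups were chosen, and they shared the scaling and the filter on mean FPKM. Their log2 ratio ran from -2.21 to -1.64. Along the ratio within them, 23 of the 24 genes that rose had a positive slope, against 50.4% of all genes tested, and 25 of the 27 that fell had a negative slope, against 49.6%. The median slope was 0.38 log2 units per unit of log2 ratio for the genes that rose, -0.38 for those that fell and 0.0020 for all genes tested. No gene passed in limma over all genes (0%), while 56 passed when libraries were weighted by their spread (array weights). Of the 24 genes, 5 had a positive slope at an unadjusted p under 0.05, as had 47 of all genes tested (0.368%), and of the 27, 0 had a negative one, as had 13 of all (0.102%).

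Neurod6 had a middle slope of 1.38 (SE 0.463; unadjusted limma p = 0.0131), Islr2 0.86 (p = 0.0163), Dkk3 0.77 (p = 0.0255), Ncald 0.73 (p = 0.0215) and C1ql3 1.06 (p = 0.0136). Adora2a had -0.27 (SE 0.262; p = 0.323), Drd2 -0.40 (SE 0.397; p = 0.334) and Stk32a -0.53 (SE 0.294; p = 0.102). The 3 genes with the opposite sign were Klf16 (0.08), Tmem158 (0.25) and Ndst3 (-0.0082). Same-sign genes numbered 39 to 49 of 51 when each middle library was left out, lowest without haloperidol replicate 29.

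The fixed lists gave a mixed picture in the middle libraries. All 24 general spiny projection neuron genes had a negative slope, with a median of -0.44, and so had all 8 indirect-pathway genes (-0.41) and all 7 cholinergic genes (-0.54). Of the 17 cortical excitatory genes, 15 had a positive slope, with a median of 0.56. Other tissue lists were as one-sided, with 7 of 7 thalamic genes (median 0.84) and 8 of 8 meningeal fibroblast genes (median 0.84) positive. Direct-pathway genes were split, with 3 positive and 5 negative slopes and a median of -0.22. Upper-layer genes had a median of -0.09. Choroid plexus genes ran against their direction in the groups, with 15 of 15 positive and a median of 0.74.

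**Figure D4:**
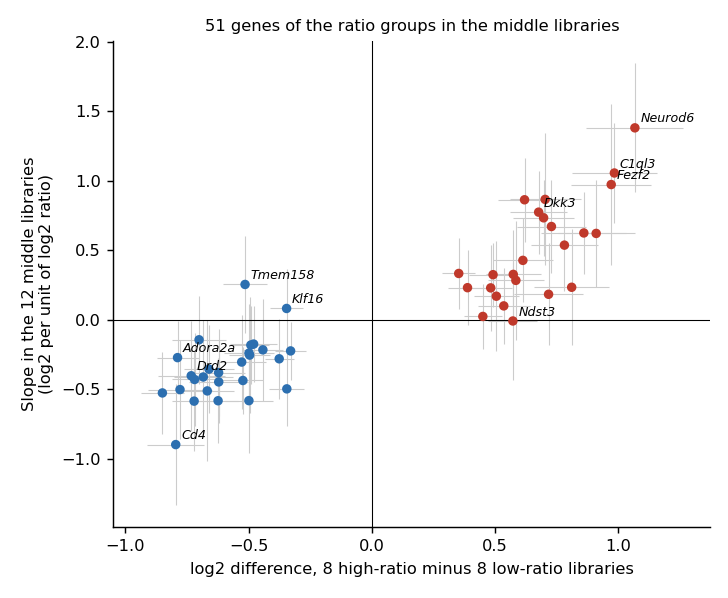
For the 51 genes past the threshold, the slope per unit of log2 ratio in the 12 middle libraries (y axis) against the log2 difference between 8 high-ratio and 8 low-ratio libraries (x axis); red rose, blue fell, and lines are standard errors. Most points lie in the lower left and upper right, with 48 of 51 sharing a sign.

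The smallest p in the middle libraries belonged to other genes. Positive slopes were those of Otud4 (4.33; unadjusted limma p = 0.00226), the alpha-1D adrenergic receptor gene Adra1d (1.22; p = 0.00547), Dynlt1a (1.95; p = 0.00815), 1110032F04Rik (1.02; p = 0.00957) and Rnaset2b (2.89; p = 0.0106). Rnaset2b shares 962 exon bases with another gene on its own strand. Negative slopes were those of Casq2, a calcium store protein (-1.60; p = 0.00440), the substance P receptor gene Tacr1 (-0.96; p = 0.0168), Hbegf (-1.01; p = 0.0168), A230077H06Rik (-0.88; p = 0.0396) and Fam184b (-0.81; p = 0.0420). None passed in limma after adjustment. Adra1d differed by 0.90 (adjusted p = 0.148) and Tacr1 by -0.48 (adjusted p = 0.0900) between the groups.

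The ratio was compared with treatment and batch over all 28 libraries. Haloperidol libraries had a mean of -2.05 ± 0.607 (SD, n = 16) and placebo libraries one of -2.02 ± 0.718 (SD, n = 12), a difference of -0.03 and smaller than the spread (permutation p = 0.926, adjusted p = 0.926 over 4 comparisons, 2-sided). Within batch 1 the difference was -0.07 (exact permutation p = 0.857, adjusted p = 0.926) and within batch 2 it was -0.17 (exact permutation p = 0.343, adjusted p = 0.687). Batch 2 libraries averaged -1.76 ± 0.258 (SD, n = 12) and batch 1 libraries -2.25 ± 0.768 (SD, n = 16), which did not pass after adjustment (permutation p = 0.0430, adjusted p = 0.172). Batch 1 held both ends of the range.

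Adding the log2 ratio to the haloperidol comparison over 28 libraries gave 3 genes (0.0235% of the genes tested), all higher with haloperidol, against 1 (0.00784%) without it. At an unadjusted p under 0.05 there were 742 genes (5.82%) with the ratio and 803 (6.29%) without it. The gene called without the ratio was Anxa3. The number of genes was 2 to 5 when each library was left out, and 5 without placebo replicate 2. With the RNA integrity number or the log2 FPKM sum added, 6 and 20 genes passed.

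Penk was 809, 1032 and 1371 FPKM (lowest, median, highest) in the 16 haloperidol and 539, 647 and 1257 FPKM in the 12 placebo libraries. These ranges overlapped, and the highest placebo value, in placebo replicate 12, came from the library with the lowest ratio. The log2 difference was 0.57 (SE 0.111; limma adjusted p = 0.0825) without the ratio and 0.53 (SE 0.0694; limma adjusted p = 0.000439) with it. Penk passed in all 28 omissions of a single library with the ratio in the model, with an adjusted p of 1.8e-05 to 0.00219. With the ratio in the model the difference was 0.51 within batch 1 (unadjusted limma p = 0.000365, adjusted p = 1) and 0.52 within batch 2 (unadjusted p = 0.000859, adjusted p = 0.3005). With the summed cortical excitatory list as the covariate in place of the ratio, which was added after seeing the data, it was 0.51 (adjusted p = 0.105), and with Slc17a7 alone 0.57 (adjusted p = 0.00524). Ppp1r1b enters the ratio and is itself a spiny neuron gene.

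Anxa3, an annexin gene that binds calcium and membranes (chr5:97222404-97274987 in mm9, 13 exons), was 8.504, 9.86 and 15.1 FPKM in haloperidol and 3.69, 7.17 and 10.2 FPKM in placebo libraries. The groups overlapped. Its log2 difference was 0.58 (limma adjusted p = 0.0152) without and 0.56 (SE 0.0916; limma adjusted p = 0.00903) with the ratio, and it passed in all 28 omissions. Within batches it was 0.44 in batch 1 (adjusted p = 1) and 0.74 in batch 2 (adjusted p = 0.3005). Between the ratio groups Anxa3 differed by -0.21 (adjusted p = 0.897).

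The third gene, 9230009I02Rik, was 1.29, 1.99 and 3.35 FPKM in haloperidol and 0.341, 1.12 and 1.595 FPKM in placebo libraries, low levels that fell below 1 FPKM in some placebo libraries. Its log2 difference was 0.70 (SE 0.129; limma adjusted p = 0.0429) with and 0.73 (adjusted p = 0.0825) without the ratio, and it passed in 9 of the 28 omissions. Rem2 (0.44; adjusted p = 0.101) and the neurotensin gene Nts (0.73; adjusted p = 0.107) did not pass with the ratio in the model.

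**Figure D5:**
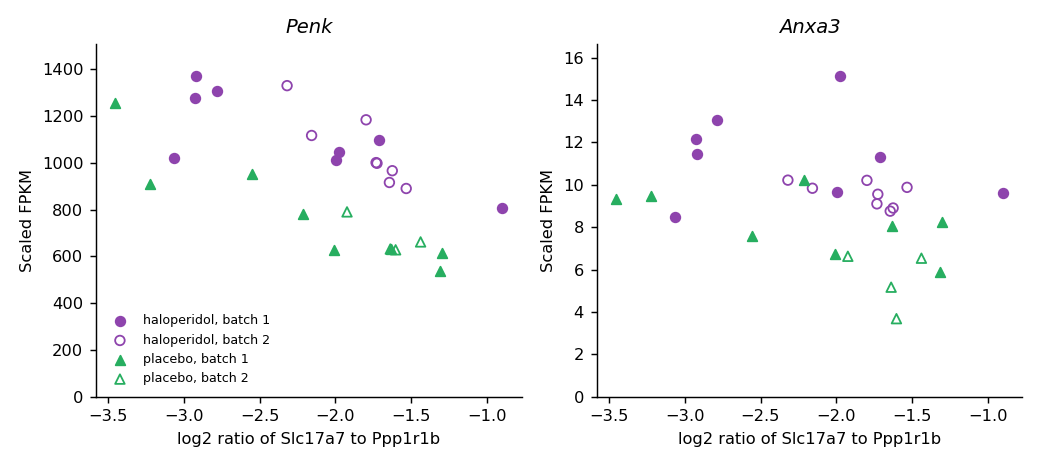
Scaled FPKM (y axis, from 0) of Penk and Anxa3 in the 28 libraries against the log2 ratio (x axis); purple circles are haloperidol, green triangles placebo, filled symbols batch 1 and open symbols batch 2. Penk is lower at higher ratios in both treatments, and most haloperidol libraries lie above placebo libraries of a like ratio.

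The slope of genes along the ratio was also compared between treatments and between batches. No gene passed in limma for treatment (0%), with 524 genes (4.11%) at an unadjusted p under 0.05, and none for batch (0%), with 62 genes (0.486%). The smallest p by treatment was that of Birc5, the apoptosis inhibitor survivin, with an interaction of 1.29 (limma adjusted p = 0.530). Ccdc78 (1.05), Cd302 (0.30), Myrip (-0.25) and 1110008F13Rik (0.31) followed with the same adjusted p. By batch the smallest p were those of Snora34, Slc9a9, Sirt5, 2310069G16Rik and Layn (limma adjusted p = 1.00 each). Fitted in each treatment alone, Penk had a slope of -0.30 in haloperidol and -0.47 in placebo libraries, and Rem2 -0.32 and -0.46; their interactions in the joint fit did not pass (limma adjusted p = 0.530 each).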

How the data were processed

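Striatal total RNA was sequenced from TruSeq v2 libraries, per the labels' protocols. The submitters' processing notes name TopHat2 2.0.6, the mm9 build and Cufflinks. The labels say strand-specific, but the sources used here give neither the Cufflinks version nor whether the quantification used strand. The authors deposited FPKM for 30563 transcripts under 23309 gene symbols, held as other text attributes of each transcript line. Gene FPKM was the sum over transcripts. Read counts were not used here and the absolute depth is unknown; relative depth, from the ratio of coverage to FPKM, ranged from 0.433 to 1.73 and the median half-width of the deposited FPKM intervals from 12.2% to 22.7%. FPKM sums ranged from 380952 to 575171, and 0 library pairs were identical.

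Tested were genes whose FPKM averaged 1 or more over 28 libraries, without the 2 genes of the rule. Values were scaled by median of ratios, and limma 3.58.1 in R 4.3.3 (eBayes with trend, 2-sided, Benjamini-Hochberg, threshold 0.05) was run on log2(scaled FPKM + 0.5), a scale on which low genes change less. The ratio groups had treatment and batch as covariates (12 residual degrees of freedom), as had the middle libraries (8). Permutation tests used Python 3.11.15 and SciPy 1.17.1, exact or with 100000 resamples. Only the fit of the ratio groups was checked on simulated data. The simulated noise was independent between genes, without batch or treatment effects. That check therefore does not cover the choice of groups by measured RNA. Promoters came from RefSeq, GRCm38.p6.

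The libraries, the 37 gene lists and the genes named were chosen with earlier results of these data known. Named were up to 15 genes per direction by size of the log2 difference, the markers, a set of striatal genes, up to 4 list members by p, and the 5 smallest p of the other fits; further genes past the threshold and which lists to describe were chosen after values were seen. Alternatives were other pseudocounts, filters, scalings, covariates, group sizes and choosing genes, and each library left out. A few genes selected this way are not reported here.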

Additional observations from a re-analysis of the deposited data

Results flagged for a closer look

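A sample far from the others of its ratio group was found in 15 of 238 groups of values tested (6.30%) with Dixon's criterion, which chance gives in about 1 of 20. In the high-ratio libraries, scaled FPKM were high for Dkk3 in placebo replicate 32 (84.6), for Dlgap1 (72.2) and Nfib (9.66) in placebo replicate 4, for Ildr2 (14.3) and Grin3a (4.91) in placebo replicate 8 and for Mal in placebo replicate 6 (169), and low for Cacna1h in placebo replicate 8 (8.01) and Gfra2 in haloperidol replicate 25 (14.5). In the low-ratio libraries, placebo replicate 12 stood high for Lmo2 (45.1), Tac1 (240.0), Cldn11 (176) and Rgs14 (39.9), haloperidol replicate 13 high for Isl1 (6.32), haloperidol replicate 35 low for Crh (1.91) and placebo replicate 2 low for Pde2a (144).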

How the results depend on the processing

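The 24 genes that rose and 27 that fell between the ratio groups became 1 and 5 with rescaling to a common FPKM sum, 74 and 70 with the RNA integrity number added, 377 and 295 with the log2 FPKM sum added, 198 and 112 without covariates, 348 and 381 with array weights, 1 and 1 for 6 against 6 libraries, and 281 and 148 with the continuous ratio over 28 libraries. Batch 1 alone, with fewer libraries, gave 0 and 0, and the added choroid plexus sum 0 and 3. Grouping by Slc17a7 alone left 1 gene that fell, and by Ppp1r1b alone 7 that rose, and 7 and 27 of the 51 genes were still called. Other pseudocounts, filters, quantile normalization, no scaling and 10 against 10 libraries stayed within 1.5 times of both counts. Leaving out each library gave 0 to 52 and 3 to 46. In the middle libraries, 0 genes passed in each omission and 56 with array weights, and 39 to 49 of the 51 genes kept their sign. With the ratio in the model the 3 haloperidol genes became 1 without the ratio, 6 with the RNA integrity number, 20 with the log2 FPKM sum, 1 with the cortical list sum, 0 in batch 1 alone, 0 in batch 2 alone and 2 to 5 in omissions. Reversed were Pde10a without covariates (0.19), and Folr1 (0.034) and Aqp1 (0.039) with the choroid plexus sum, of which both are members. Causes of the shifts in these counts were not tested. The absolute depth is unknown, so counting error could not be given. No paired analysis was possible because the treatments share no mouse numbers.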
